A study of Mus musculus with 10 samples.

Results

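The genes described here were the semaphorins, slits and netrins and the neuropilin, plexin and robo receptors that bind most of them. They were measured by RNA sequencing in pancreatic carcinoma cells taken from tumours grown in mice. The members were all protein-coding mouse genes whose symbol begins with Sema or Plxn, together with Slit1 to Slit3, Robo1 to Robo4, Ntn1, Ntn3, Ntn4, Ntn5, Nrp1 and Nrp2. This gave 42 of the 51707 genes quantified, made up of 20 semaphorins, 9 plexins, 2 neuropilins, 3 slits, 4 robos and 4 netrins. No member passed the test between the groups, and the results below are therefore mainly levels and the spread between libraries.

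The study set 5 libraries from tumours that held Egfr KO pancreatic stellate cells (Egfr KO PSC) against 5 libraries from tumours that held Egfr WT cells (Egfr WT PSC). Stellate cells are the resident fibroblast precursors of the pancreas, and Egfr encodes the epidermal growth factor receptor. In both groups the carcinoma cells came from T6-LOH organoids of the KPC model, a genetic mouse model of pancreatic cancer, and they were placed in the mouse pancreas together with cells of the stellate line PSC4. The knockout stellate cells were a single line, PSC4 EGFR KO B4, read as 1 clone, and the control cells were the line labelled PSC4 ROSA (egfr), read here as Egfr WT because the series design names only those alternatives, so loss of Egfr and the properties of that clone cannot be told apart. NSG mice, an immunodeficient strain without mature lymphocytes, are named in the title of the series, while every library has the strain label C57BL/6J, and the labels do not say whether this means the host or the grafted cells. The carcinoma cells were sorted by flow cytometry, with sort markers that the labels do not name. Their own Egfr gene was not targeted, so its level does not check the labels. The labels do not tie a library to a mouse of its own, and p-values therefore cover only the variation among these 10 libraries.

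Semaphorins are secreted or membrane-bound guidance cues best known for collapsing the growing tips of axons. Plexins are their signalling receptors, and secreted class 3 semaphorins usually need a neuropilin beside the plexin, a co-receptor that also binds vascular endothelial growth factor. Slits are large secreted proteins that repel growing axons through robo receptors, and netrins attract or repel through Dcc, neogenin and Unc5 receptors. In carcinomas the same genes are studied for cell migration, vessel growth and the contact of tumour cells with nerves.

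Library totals lay between 39534055 and 53816086 estimated counts in annotated genes. Epithelial markers were present throughout, with a summed level of 14580 to 26160 CPM (counts scaled to a fixed library total) in Egfr KO PSC libraries and 17150 to 18570 CPM in Egfr WT PSC libraries. Markers of other cells were also read. The 10 fibroblast and stellate markers summed to 341 to 1224 CPM with Egfr KO PSC and 366 to 920 CPM with Egfr WT PSC, and 8 of the 10 were lower with Egfr KO PSC. Col3a1, which was on average higher with Egfr KO PSC, made up most of the highest sum (1071 CPM in Egfr KO PSC replicate 1), and the other Egfr KO PSC libraries reached at most 619.4 CPM. The 10 macrophage markers summed to 224 to 336 CPM with Egfr KO PSC and 274 to 467 CPM with Egfr WT PSC, and 7 were lower with Egfr KO PSC, most of the sum being Cd14. The 10 endothelial markers summed to 16.6, 24.1, 70.4, 21.3 and 33.0 CPM in the Egfr KO PSC libraries and to 34.2, 45.6, 38.9, 37.0 and 52.1 CPM in the Egfr WT PSC libraries, and all 10 were lower with Egfr KO PSC. None of these markers was called, and none of the fibroblast, macrophage or endothelial markers was at 0 in any library. The erythroid markers were the list whose sums did not overlap, at 0.604 to 2.97 CPM with Egfr KO PSC and 4.45 to 31.5 CPM with Egfr WT PSC, and all 3 that passed the filter were lower with Egfr KO PSC, with none called. The 8 Schwann and glial markers summed to 152 to 264.8 CPM with Egfr KO PSC and 154.6 to 247.7 CPM with Egfr WT PSC, most of it Erbb3 and Mbp, which were read in every library, while Sox10 and Foxd3 were at 0 in most libraries. The 8 neuronal and neuroendocrine markers summed to 28.4 to 53.1 CPM with Egfr KO PSC and 37.2 to 81.1 CPM with Egfr WT PSC. Among them Tubb3 averaged 15.7 CPM with Egfr KO PSC and 41.8 CPM with Egfr WT PSC, Snap25 averaged 13.9 CPM with Egfr KO PSC and 4.59 CPM with Egfr WT PSC, and Syp, Elavl4 and Rbfox3 were at 0 in some libraries. Lymphocyte markers summed to at most 0.281 CPM in any library, and the sums of the pericyte, acinar and neutrophil markers overlapped between the groups. The part of these other cells in the differences between the groups was not tested, apart from the fits with the fibroblast, macrophage or endothelial score (the mean log2 CPM of a list in each library) as a covariate. The macrophage score lay between 1.40 and 1.98 with Egfr KO PSC and between 1.84 and 2.98 with Egfr WT PSC. A fit with this score therefore separates score and group poorly, and its fold changes do not measure a part of macrophages. In bulk libraries, fewer cells of a type and less RNA per cell cannot be told apart.

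Across the members, the group comparison gave no call. A filter on low counts left 34 of the 42 members for testing, and 0 of these had an adjusted p under 0.05 in edgeR's quasi-likelihood test, in DESeq2 or in limma voom. Over all genes tested, edgeR called 0 of 17495 (0%), DESeq2 called 136 of 18542 (0.733%) and limma voom called 2 of 17495 (0.0114%). At an unadjusted p under 0.05 in edgeR, Sema3a was higher (3.55% of all genes tested were higher at that level) and Nrp1 and Sema5a were lower (4.6% of all genes). These 3 members were 8.82% of the 34, beside 8.15% of all genes tested, so the share of members lay near that of the rest of the transcriptome. No member had groups that did not overlap, against 1.52% of all genes tested (0.777% higher and 0.743% lower with Egfr KO PSC). The lowest adjusted p of a member was 0.440 in edgeR (Nrp1), 0.175 in DESeq2 (Sema3a) and 0.208 in limma voom (Sema5a). Of the 34 members, 13 were higher and 21 lower with Egfr KO PSC, and their median log2 fold change was -0.09, beside 0.00041 over all genes tested, of which 50.1% were higher. A positive log2 fold change means a higher level with Egfr KO PSC.

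**Figure D1:**
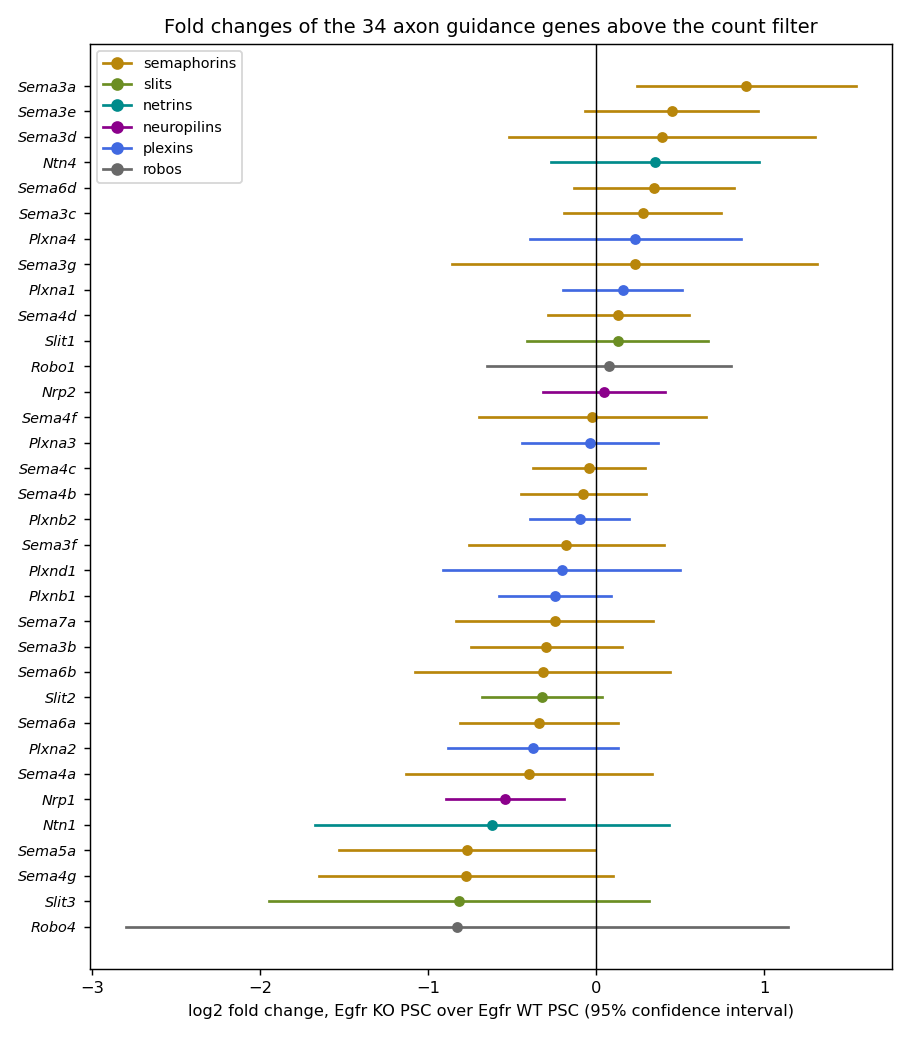
Log2 fold change of each of the 34 members above the count filter (point) with its 95% confidence interval (line), coloured by family; values right of 0 are higher with Egfr KO PSC. The intervals of Sema3a, Nrp1 and Sema5a leave out 0 before adjustment, and no member was called after adjustment over all 17495 genes.

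Levels were compared between genes per length, as TPM (abundance corrected for transcript length and scaled to a fixed total) summed over each gene's protein-coding transcripts. A total of 8 members had a mean of at least 10 coding TPM over the 10 libraries, 15 lay between 1 and 10, and 19 lay under 1. Plxnb2, a receptor for class 4 semaphorins, led with 108.9 ± 20.1 coding TPM (mean ± SD over the 10 libraries), and its lowest library, at 82.9 TPM, was above the highest library of every other member. Sema4a averaged 43.7 ± 19.98, Sema3c 35.7 ± 10.4 and Sema3b 34.6 ± 8.18 coding TPM, and these neighbours overlapped across libraries. The next levels were Nrp1 at 17.01 ± 5.02, Plxnb1 at 15.8 ± 3.43, Slit2 at 14.6 ± 3.35 and Nrp2 at 14.3 ± 2.68 coding TPM, whose libraries overlapped. The libraries of sorted cells therefore held RNA of secreted class 3 and membrane-bound class 4 semaphorins, both neuropilins, B-type plexins and 1 slit. They held little RNA of the robos and netrins. Markers of other cells were read in the same libraries, and the part of those cells in these levels was not tested.

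**Figure D2:**
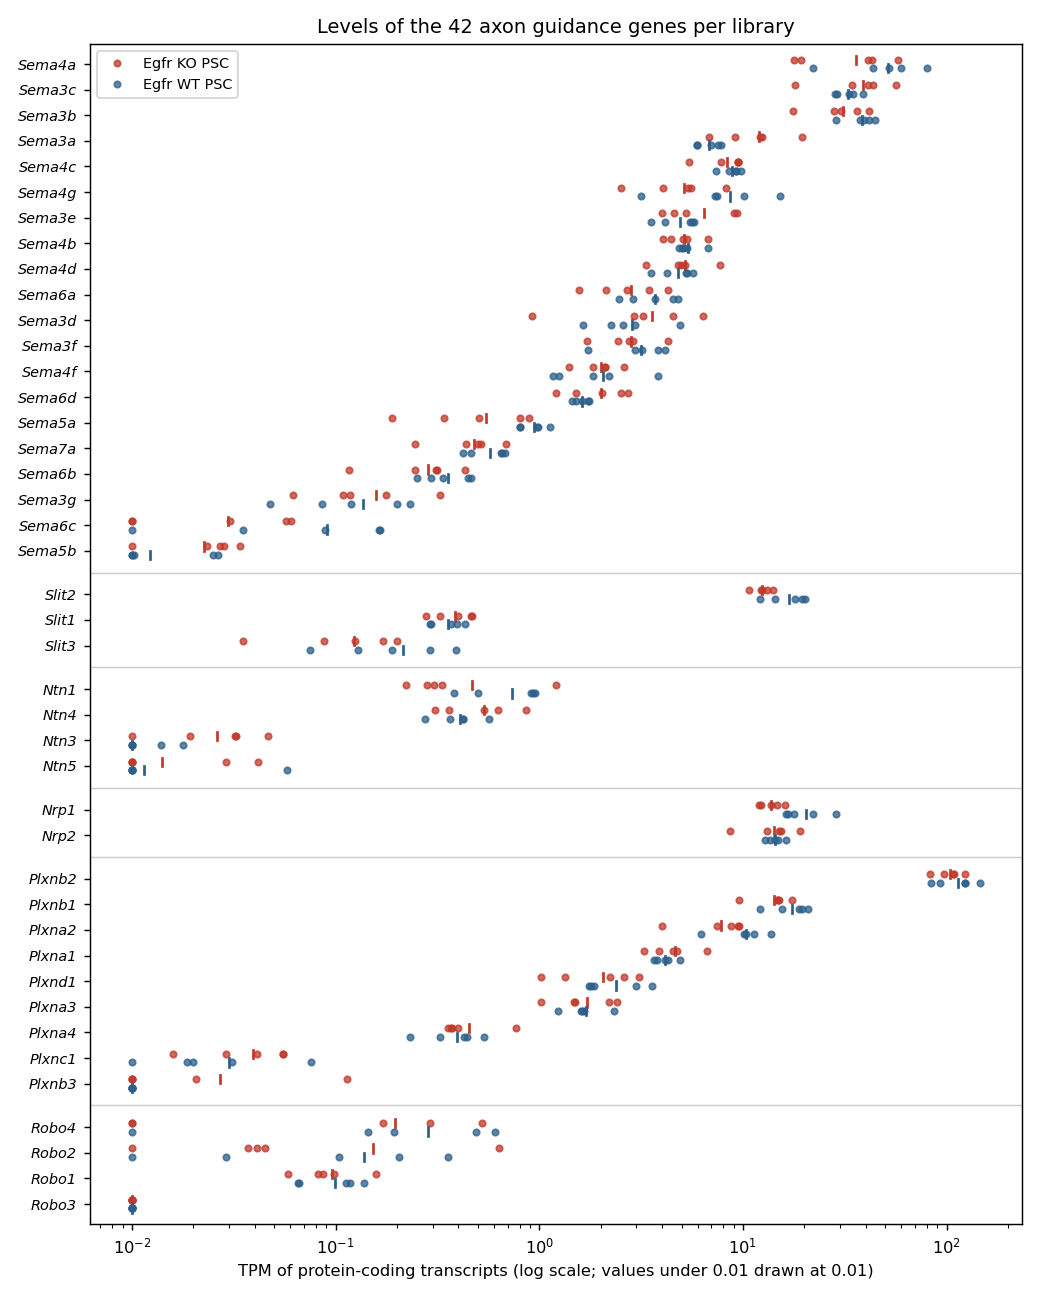
Coding TPM of the 42 members in each library (points) with group means (short bars), on a log axis, Egfr KO PSC above Egfr WT PSC in each line and families separated by grey lines. Plxnb2 stands alone near 108.9 TPM, 8 members reach 10 TPM, and all robos and netrins average under 1 TPM.

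Class 3 semaphorins, the secreted members that act through neuropilins and A-type plexins, held between 45.7% and 69.1% of all semaphorin coding TPM in a library. Their summed level was 94.6 ± 28.6 coding TPM with Egfr KO PSC and 88.9 ± 9.09 coding TPM with Egfr WT PSC (SD, n = 5 each), a difference smaller than either SD. All 7 passed the count filter, and 5 were higher and 2 lower with Egfr KO PSC, with none called. Sema3a, the classical repellent of sensory and sympathetic axons that signals through Nrp1 and A-type plexins, had 43.0, 22.3, 18.1, 33.9 and 66.4 CPM in the Egfr KO PSC libraries, against 23.1, 19.8, 15.3, 19.8 and 20.9 CPM in the Egfr WT PSC libraries. Replicates 1, 4 and 5 of Egfr KO PSC were above every Egfr WT PSC library, while replicates 2 and 3 lay among them. The log2 fold change was 0.90 (SE 0.30, edgeR adjusted p = 0.485), and it was 0.57 without Egfr KO PSC replicate 5 and 1.07 without replicate 3. As a covariate, the macrophage score gave 0.40, the endothelial score 0.69 and the fibroblast and stellate score 1.175. The spread was unequal, with an SD of 19.3 CPM among Egfr KO PSC libraries and 2.83 CPM among Egfr WT PSC libraries.

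Sema3e is unusual among class 3 semaphorins in binding Plxnd1 without a neuropilin. Its counts were 87.4, 81.0, 57.2, 143.0 and 141.5 CPM with Egfr KO PSC, against 79.9, 57.8, 79.6, 91.2 and 64.7 CPM with Egfr WT PSC. Replicates 4 and 5 of Egfr KO PSC were above all the others, and replicate 3 of Egfr KO PSC was the lowest of the 10 libraries. The log2 fold change was 0.45 (SE 0.24, edgeR adjusted p = 0.660). Sema3c, a ligand of both neuropilins that is needed for the cardiac outflow tract, had 174.0, 141.7, 88.3, 233.7 and 188.6 CPM with Egfr KO PSC, against 149.4, 124.5, 127.9, 114.9 and 164.7 CPM with Egfr WT PSC. Here 3 Egfr KO PSC libraries exceeded all Egfr WT PSC libraries and 1 lay under them all. Its log2 fold change was 0.28 (SE 0.21, edgeR adjusted p = 0.762), and it was 0.12 without Egfr KO PSC replicate 4 and 0.45 without replicate 3. Sema3e stood at 0.30 without Egfr KO PSC replicate 4. Both signs turned in a fit with the macrophage marker score of each library as a covariate, to -0.020 for Sema3e and -0.14 for Sema3c. With the endothelial score as a covariate the value was -0.0023 for Sema3c and 0.21 for Sema3e, and with the fibroblast and stellate score it was 0.14 for Sema3c.

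Most of the RNA assigned to Sema3e came from a form that is not annotated as protein-coding. Transcript Sema3e-202 keeps an intron of 720 bases, ends in a shorter last exon (1977 bases, against 4352 bases in the coding form Sema3e-201) and took between 70.9% and 77.4% of the Sema3e TPM of a library. The coding form Sema3e-201 stood at 5.24, 4.604, 3.99, 9.07 and 9.40 TPM with Egfr KO PSC, against 5.78, 3.53, 5.52, 5.62 and 4.14 TPM with Egfr WT PSC. Replicates 4 and 5 of Egfr KO PSC were again highest, and the lowest library was replicate 2 of Egfr WT PSC. In TPM the whole gene was also lowest with Egfr WT PSC (13.81 TPM, against at least 14.85 TPM with Egfr KO PSC). In CPM, replicate 3 of Egfr KO PSC (57.2 CPM) lay just under replicate 2 of Egfr WT PSC (57.8 CPM). Sema3b and Sema3f are candidate tumour suppressors from a human chromosome region often lost in lung cancer. Sema3b averaged 60.0 ± 18.6 CPM with Egfr KO PSC and 73.7 ± 10.8 CPM with Egfr WT PSC, and Sema3f 6.75 ± 1.77 CPM with Egfr KO PSC and 7.63 ± 2.56 CPM with Egfr WT PSC. Sema3d averaged 16.6 ± 9.37 CPM with Egfr KO PSC and 12.6 ± 5.13 CPM with Egfr WT PSC. Sema3g, the lowest of the class, averaged 0.489 ± 0.305 CPM with Egfr KO PSC and 0.418 ± 0.232 CPM with Egfr WT PSC. In CPM, Egfr KO PSC replicate 3 was the lowest of the 10 libraries for Sema3b, Sema3c, Sema3d and, by a narrow margin, Sema3e.

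Class 4 semaphorins, membrane-bound ligands that bind mainly B-type plexins, summed to 61.7 ± 17.8 coding TPM with Egfr KO PSC and 81.3 ± 24.7 coding TPM with Egfr WT PSC. Of the 6 members, 1 was higher and 5 were lower with Egfr KO PSC, with none called. Sema4a, best known for its part in T cell priming and in the retina, had 83.2, 113.7, 40.1, 38.9 and 93.6 CPM with Egfr KO PSC, against 145.0, 90.1, 108.4, 95.6 and 47.5 CPM with Egfr WT PSC. Low values occurred in both groups, in replicates 3 and 4 of Egfr KO PSC and in replicate 5 of Egfr WT PSC. Sema4a had a log2 fold change of -0.40 (SE 0.34, edgeR adjusted p = 0.789). Without 1 library it lay between -0.61 (Egfr KO PSC replicate 2 left out) and -0.21 (Egfr WT PSC replicate 1 left out), and it was -0.88 with the fibroblast and stellate score and -0.72 with the endothelial score as a covariate. Sema4g, a ligand of Plxnb2 in the mouse cerebellum, had 25.0, 31.3, 8.19, 14.9 and 25.9 CPM with Egfr KO PSC, against 65.6, 32.0, 36.5, 32.4 and 13.7 CPM with Egfr WT PSC. Replicate 5 of Egfr WT PSC was lower than 4 of the Egfr KO PSC libraries, and the other Egfr WT PSC libraries were above all of them. The log2 fold change was -0.77 (SE 0.40, edgeR adjusted p = 0.655), and it was -0.44 without Egfr WT PSC replicate 1, the highest library. With the fibroblast and stellate score it was -1.48, and with the endothelial score -1.30. Sema4b, Sema4c, Sema4d and Sema4f averaged between 5.43 CPM (Sema4f) and 19.6 CPM (Sema4c) with Egfr KO PSC, and between 5.51 CPM (Sema4f) and 20.2 CPM (Sema4c) with Egfr WT PSC. Their log2 fold changes lay between -0.08 (Sema4b) and 0.13 (Sema4d).

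The other semaphorin classes were low. Sema5a carries thrombospondin repeats beside its sema domain and can attract or repel axons. It had 4.07, 2.61, 6.69, 1.59 and 6.68 CPM with Egfr KO PSC, against 6.11, 9.49, 7.27, 6.18 and 7.76 CPM with Egfr WT PSC. Replicates 1, 2 and 4 of Egfr KO PSC lay under every Egfr WT PSC library, and replicates 3 and 5 lay among them. Its log2 fold change was -0.77 (SE 0.35, edgeR adjusted p = 0.609). The value was -0.28 with the fibroblast and stellate score, -0.48 with the macrophage score and -0.50 with the endothelial score as a covariate. Sema6d, a transmembrane ligand of Plxna1 in the developing heart, had 9.55, 5.35, 11.2, 12.2 and 7.17 CPM with Egfr KO PSC, against 6.34, 8.59, 6.64, 7.37 and 6.79 CPM with Egfr WT PSC. Here 3 Egfr KO PSC libraries were above all Egfr WT PSC libraries, and replicate 2 was under them all. Sema6d had a log2 fold change of 0.35 (SE 0.22, edgeR adjusted p = 0.713), and it was 0.22 without Egfr KO PSC replicate 4 and 0.20 in limma voom. Sema6a averaged 11.2 ± 3.04 CPM with Egfr KO PSC and 14.2 ± 3.24 CPM with Egfr WT PSC. Sema7a, the membrane-anchored semaphorin that binds integrins and Plxnc1, averaged 1.02 ± 0.303 CPM with Egfr KO PSC and 1.21 ± 0.235 CPM with Egfr WT PSC. Sema6b averaged 0.581 ± 0.247 CPM with Egfr KO PSC and 0.723 ± 0.199 CPM with Egfr WT PSC. Sema5b (0 to 4 estimated counts per library) and Sema6c (4 to 13) did not pass the filter.

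Among the slits, Slit2 held between 94.2% and 97.7% of the coding TPM of the family. It had 113.0, 94.3, 84.8, 87.6 and 102.0 CPM with Egfr KO PSC, against 129.7, 155.5, 135.0, 99.7 and 81.8 CPM with Egfr WT PSC. Replicates 1, 2 and 3 of Egfr WT PSC were above all Egfr KO PSC libraries, and replicate 5 of Egfr WT PSC was the lowest of the 10 libraries. Slit2 had a log2 fold change of -0.32 (SE 0.16, edgeR adjusted p = 0.652), and it was -0.21 without Egfr WT PSC replicate 2. Slit2 stood at -0.075 with the macrophage score and at -0.56 with the fibroblast and stellate score as a covariate. Slit1 averaged 1.48 ± 0.388 CPM with Egfr KO PSC and 1.36 ± 0.252 CPM with Egfr WT PSC. Slit3 averaged 0.423 ± 0.234 CPM with Egfr KO PSC and 0.744 ± 0.466 CPM with Egfr WT PSC, with 5 to 75 estimated counts per library.

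Slit2 is spliced with or without a cassette exon of 24 bases in its coding region, at chr5:48220967-48220990 on the plus strand of GRCm38, and both forms are shown because they differ only in this exon. The exon is in capitals, with 15 bases of the neighbouring exons on each side, from the GENCODE M21 transcripts.
Slit2 with the exon: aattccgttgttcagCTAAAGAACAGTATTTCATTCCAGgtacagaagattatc
Slit2 without the exon: aattccgttgttcaggtacagaagattatc
Of 4 coding transcripts that span the place, 2 hold the exon, and their share of the TPM of the 4 was 8.52%, 13.2%, 0%, 12.4% and 0% with Egfr KO PSC, against 12.0%, 3.11%, 6.74%, 6.06% and 0% with Egfr WT PSC. The form without the exon led in every library, and the groups overlapped. These shares are the quantifier's division of reads that the forms mostly have in common, so a share of 0% means that no reads were assigned to the exon-bearing transcripts.

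Netrins were the ligand family with the lowest sum, at 0.611 to 1.59 coding TPM in the 10 libraries. Ntn1, the founding member, which attracts through Dcc and repels through Unc5 receptors, had 4.52, 1.02, 1.18, 0.809 and 1.19 CPM with Egfr KO PSC, against 1.35, 3.68, 3.31, 1.78 and 3.33 CPM with Egfr WT PSC. Replicate 1 of Egfr KO PSC was the highest of the 10 libraries, while the other 4 of Egfr KO PSC were under every Egfr WT PSC library. Ntn1 had a log2 fold change of -0.62 (SE 0.48, edgeR adjusted p = 0.765). It was -1.35 without Egfr KO PSC replicate 1 (edgeR adjusted p = 0.231), -0.29 with the macrophage score and -1.03 with the endothelial score. Ntn4, a netrin of basement membranes, averaged 1.198 ± 0.390 CPM with Egfr KO PSC and 0.938 ± 0.223 CPM with Egfr WT PSC. Ntn3 (0 to 7 estimated counts) and Ntn5 (0 to 2) did not pass the filter.

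Of the receptors, Nrp1 had the lowest p of all members. It had 32.4, 40.3, 37.0, 35.5 and 35.0 CPM with Egfr KO PSC, against 72.3, 60.7, 40.2, 42.5 and 46.7 CPM with Egfr WT PSC. The groups overlapped only because replicate 2 of Egfr KO PSC lay just above replicate 3 of Egfr WT PSC. The log2 fold change was -0.54 (SE 0.16, 95% confidence interval -0.89 to -0.19, edgeR adjusted p = 0.440), and it lay between -0.63 and -0.40 when each library was left out in turn. With the endothelial score as a covariate it was -0.53, and with the fibroblast and stellate score -0.63. Nrp1 is also abundant in endothelial and stromal cells, and those marker sums are given above. The transcript Nrp1-201 carried 93.1% to 96.6% of its TPM in every library.

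Nrp2 binds Sema3f and Sema3c and is a co-receptor for vascular endothelial growth factor C in lymphatic vessels. It averaged 62.2 ± 15.8 CPM with Egfr KO PSC and 60.2 ± 5.79 CPM with Egfr WT PSC, with a log2 fold change of 0.05 (95% confidence interval -0.32 to 0.41). Its transcripts end in 1 of 2 alternative last exons that encode different membrane and cytoplasmic parts. The nearer last exon took 46.2%, 43.0%, 44.4%, 51.4% and 50.1% of the coding TPM with Egfr KO PSC, against 50.6%, 48.8%, 53.5%, 50.7% and 47.4% with Egfr WT PSC, so neither last exon led in all libraries and the groups overlapped.

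Before the last exons, Nrp2 varies in a short stretch outside the membrane. These sequences are shown because the forms differ only here: an exon can end 15 bases farther on (chr1:62786302-62786316, plus strand, GRCm38), and a separate exon of 51 bases (chr1:62812534-62812584) can be included. Capitals mark the alternative bases, with 15 bases of the neighbouring exons on each side, and the farther last exon follows in each.
Nrp2 long exon end: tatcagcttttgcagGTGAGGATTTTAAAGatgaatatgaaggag
Nrp2 with the cassette exon: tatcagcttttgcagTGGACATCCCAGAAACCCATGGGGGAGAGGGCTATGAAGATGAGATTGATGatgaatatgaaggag
Nrp2 short exon end: tatcagcttttgcagatgaatatgaaggag
The 15-base extension was in 21.6%, 16.8%, 5.55%, 14.7% and 30.3% of the coding TPM with Egfr KO PSC, against 30.4%, 19.5%, 54.7%, 36.7% and 7.43% with Egfr WT PSC. These shares were taken over all coding forms, with either last exon and with or without the 51-base exon. Forms without the extension together held more of that TPM than forms with it in all libraries but replicate 3 of Egfr WT PSC, and the groups overlapped. The sequence printed as the short exon end, without the 51-base exon, stands for only some of those forms. The 51-base exon was in 29.3% to 40% of the TPM of forms with the farther last exon with Egfr KO PSC, and in 24.1% to 56.8% with Egfr WT PSC.

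**Figure D3:**
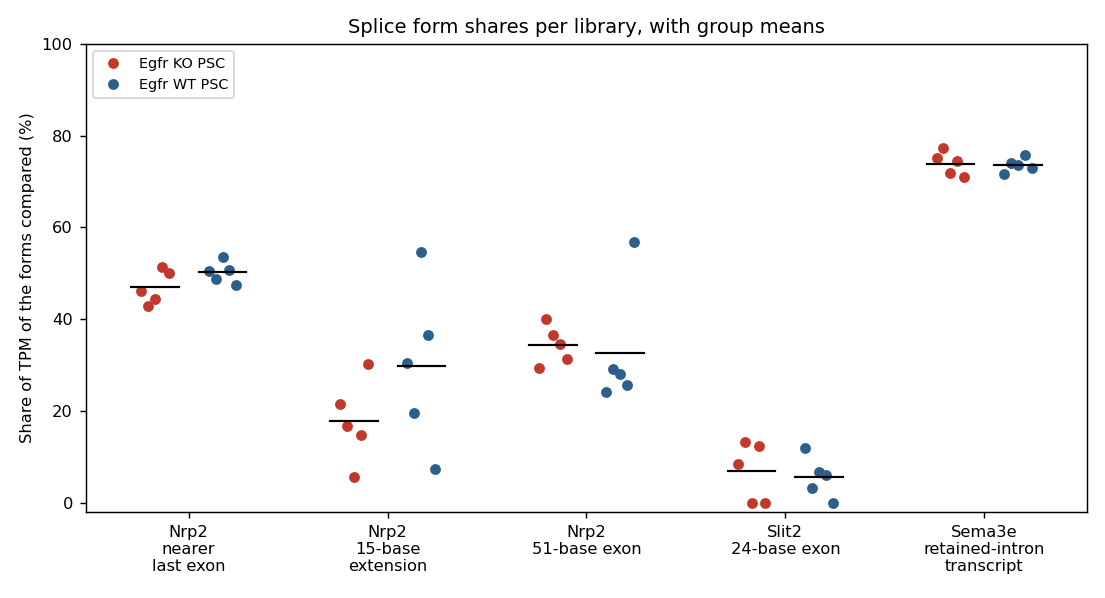
Share of TPM, in percent, of 5 splice forms in each library (points) with group means (bars), Egfr KO PSC left of Egfr WT PSC; each share is taken among the forms named in the text. The groups overlap in every form, the Slit2 exon reaches at most 13.2% and the Sema3e transcript with the retained intron takes at least 70.9%.

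Plexins were led by Plxnb2, which held 72.1% to 81.5% of the plexin coding TPM. It had 467.2, 563.6, 395.9, 514.3 and 544.2 CPM with Egfr KO PSC, against 655.2, 479.9, 543.8, 551.8 and 426.4 CPM with Egfr WT PSC. The groups overlapped over most of their range. Plxnb2 had a log2 fold change of -0.10 (95% confidence interval -0.39 to 0.20, edgeR adjusted p = 0.874), and over all alternatives it lay between -0.31 with the fibroblast and stellate score and -0.010 without Egfr WT PSC replicate 1. Plxnb1, the receptor of Sema4d, averaged 82.8 ± 15.5 CPM with Egfr KO PSC and 98.1 ± 16.1 CPM with Egfr WT PSC, with a log2 fold change of -0.25. A-type plexins, the partners of neuropilins, summed to 14.6 ± 1.96 coding TPM with Egfr KO PSC and 16.6 ± 2.40 coding TPM with Egfr WT PSC. Plxna2 led them with 64.2 ± 19.1 CPM with Egfr KO PSC and 83.2 ± 18.9 CPM with Egfr WT PSC, with a log2 fold change of -0.37 (95% confidence interval -0.88 to 0.13). Plxnd1, the receptor of Sema3e and a gene of endothelial cells, averaged 9.10 ± 3.83 CPM with Egfr KO PSC and 10.5 ± 3.99 CPM with Egfr WT PSC. Plxnb3 (3 to 20 estimated counts) and Plxnc1 (1 to 16) did not pass the filter.

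A short non-coding transcript of Plxnb2, Plxnb2-205 with 834 bases, took 34.8%, 33.5%, 48.8%, 39.0% and 30.5% of the gene's TPM with Egfr KO PSC, against 29.1%, 40.6%, 34.3%, 32.5% and 49.3% with Egfr WT PSC. It took only 4.27% to 10.8% of the gene's counts, since TPM divides by length. Egfr KO PSC replicate 3 and Egfr WT PSC replicate 5 stood highest in each group. The same pair had the lowest Sema4g level, the highest endothelial marker sum and the highest Cd14 level of their groups. The other macrophage markers were mixed in Egfr WT PSC replicate 5. Ptprc, Adgre1, C1qa and Itgam were the lowest of the Egfr WT PSC libraries there. Csf1r was the highest (9.05 CPM, against 3.93 to 6.30 CPM), and Cd68, Lyz2, Mrc1 and C1qb lay within the range of the others. With this pair left out, an alternative chosen after seeing the data, 0 members and 0 genes were called. Unadjusted p-values under 0.05 in edgeR were then reached by 8 of 34 members (23.5%) and by 12.4% of all genes tested. With all libraries it was 3 members (8.82%) and 8.15% of genes. The lowest edgeR adjusted p of a member was then 0.237. The pair was chosen after its low Sema4g level was seen, and Egfr KO PSC replicate 3 had the lowest CPM of Sema3c and Sema3e. These genes were among the 8, so that count cannot serve as support for a difference between the groups.

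The robos, the receptors of slits, were the receptor family with the lowest sum, at 0.103 to 0.740 coding TPM. In every library the coding TPM of Slit2 was between 16.3 and 135.7 times the summed coding TPM of Robo1 to Robo4. The highest ratio came from Egfr KO PSC replicate 1, where Robo4 had no count and Robo2 stood at 0.045 coding TPM, and the next highest was 57.96. Egfr KO PSC replicate 2 also had no Robo4 count, but with Robo2 at 0.634 coding TPM its ratio was 18.1. Robo4, a robo of blood vessels, had 0, 0, 1.34, 1.05 and 0.467 CPM with Egfr KO PSC, against 0.574, 1.45, 0.931, 0.616 and 1.43 CPM with Egfr WT PSC. Replicates 1 and 2 of Egfr KO PSC held no count, which allows up to 0.0567 CPM and 0.0585 CPM (3 counts, before normalisation, counting error only), and the others lay within or just below the range of Egfr WT PSC. Its log2 fold change was -0.83 (SE 0.90, edgeR adjusted p = 0.840). The endothelial marker sums of the Egfr KO PSC libraries were also under those of every Egfr WT PSC library, except in replicate 3 of Egfr KO PSC, which had both the highest endothelial sum and the highest Robo4 level of its group. Replicate 4 of Egfr KO PSC did not follow this order, with an endothelial sum of only 21.3 CPM and more Robo4 than replicates 1, 3 and 4 of Egfr WT PSC. The log2 fold change of Robo4 was -0.35 with the endothelial score, -0.29 with the fibroblast and stellate score and -0.51 with the macrophage score as a covariate, and it was -1.42 without Egfr KO PSC replicate 3, -0.48 without replicate 2 and -0.49 without replicate 1. Robo1 averaged 0.526 ± 0.222 CPM with Egfr KO PSC and 0.498 ± 0.137 CPM with Egfr WT PSC, and Robo2 (0 to 40 estimated counts) and Robo3 (0 to 8) did not pass the filter.

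**Figure D4:**
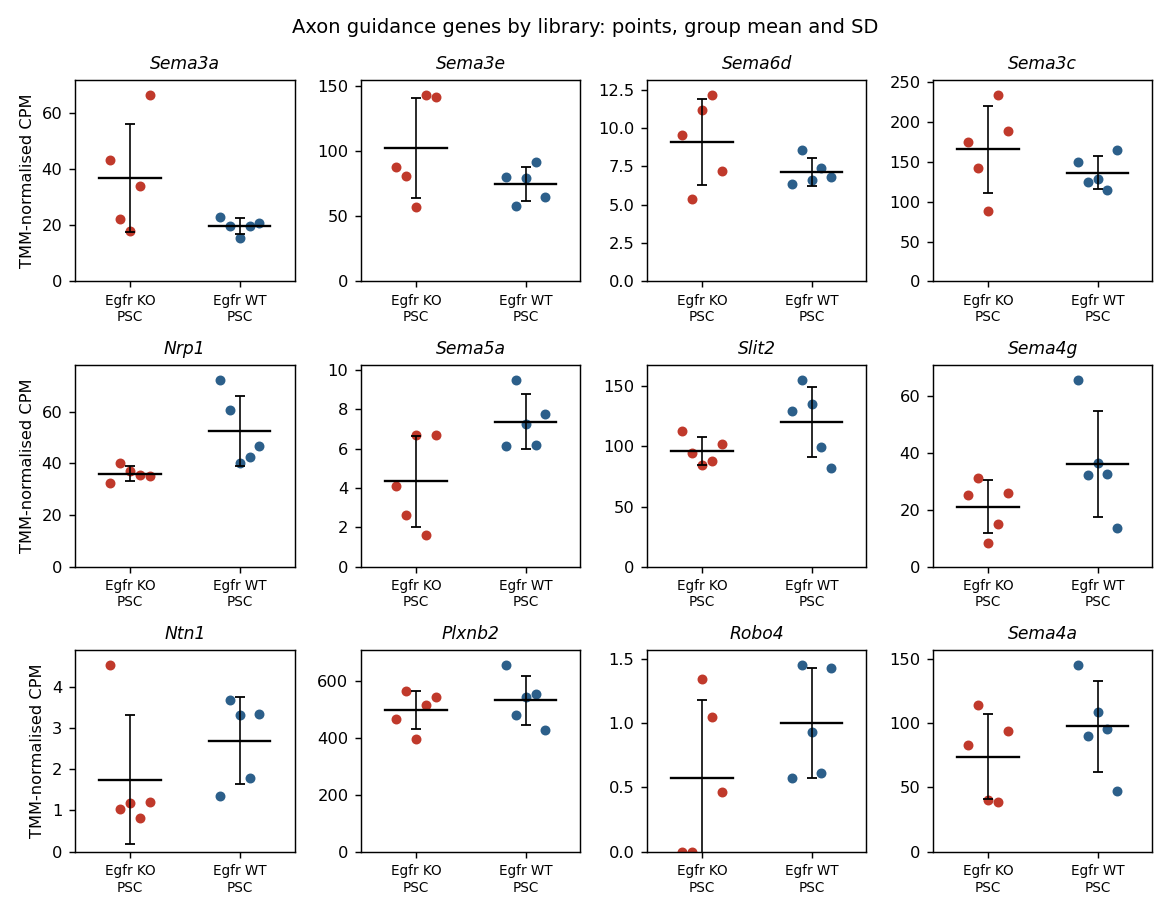
Normalised CPM of 12 members in each library (points), with the group mean (bar) and SD (whisker, not drawn under 0), Egfr KO PSC left of Egfr WT PSC, on axes that start at 0. For Nrp1, 4 Egfr KO PSC libraries lie under all Egfr WT PSC libraries; Sema3a is spread from 18.1 to 66.4 CPM with Egfr KO PSC and lies between 15.3 and 23.1 CPM with Egfr WT PSC.

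The members varied more among the Egfr KO PSC libraries. The coefficient of variation of a member's CPM had a median of 31.0% with Egfr KO PSC and 22.8% with Egfr WT PSC over the 34 tested members, beside 23.98% with Egfr KO PSC and 20.4% with Egfr WT PSC over all genes tested. It was larger with Egfr KO PSC for 27 of the 34 members (79.4%), beside 62.2% of all genes tested, and no test was made of this difference. Of the 34 members, 9 (26.5%) had their lowest value of all 10 libraries in Egfr KO PSC replicate 5 and 8 (23.5%) in Egfr KO PSC replicate 3. Over all genes tested those libraries were lowest for 15.5% and 18.8%. Egfr KO PSC replicate 5 was at the same time the highest for Sema3a and Sema3b.

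Genes that work beside the members were read in the same fit, and 0 of 64 tested were called (31 higher, 33 lower, 0 called in DESeq2). At an unadjusted p under 0.05 in edgeR there were 4 of the 64, beside 8.15% of all genes tested, so these lists did not stand out. Among receptors and ligands of the netrin and RGM pathway, 6 of 10 passed the filter, 3 higher and 3 lower, with a median log2 fold change of -0.09. Dcc, the main attractive netrin receptor, had 0 to 9 estimated counts and did not pass, nor did Unc5a, Unc5d and Dscam. Unc5b, a repulsive netrin receptor that is also known as a dependence receptor, averaged 33.4 ± 5.59 CPM with Egfr KO PSC and 25.9 ± 8.77 CPM with Egfr WT PSC (log2 fold change 0.36, edgeR adjusted p = 0.694). Per length it stood at 7.85 TPM and neogenin (Neo1) at 5.31 TPM over the 10 libraries, above any netrin. Unc5c averaged 0.386 ± 0.232 CPM with Egfr KO PSC and 0.918 ± 0.624 CPM with Egfr WT PSC (log2 fold change -1.25, edgeR adjusted p = 0.586). Rgma, a ligand of neogenin, averaged 1.93 ± 0.582 CPM with Egfr KO PSC and 2.37 ± 0.536 CPM with Egfr WT PSC.

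All 11 co-receptors through which semaphorins or plexins act passed the filter, 3 higher and 8 lower, with a median log2 fold change of -0.41. Itga1, the alpha chain of a collagen-binding integrin that pairs with Itgb1, averaged 18.04 ± 8.07 CPM with Egfr KO PSC and 36.2 ± 17.6 CPM with Egfr WT PSC, with overlapping groups (log2 fold change -1.003, edgeR adjusted p = 0.509). Chl1, an adhesion molecule that binds Nrp1, averaged 0.491 ± 0.417 CPM with Egfr KO PSC and 1.17 ± 0.640 CPM with Egfr WT PSC (log2 fold change -1.25, edgeR adjusted p = 0.620). Kdr, the main receptor of vascular endothelial growth factor and also 1 of the 10 endothelial markers, averaged 2.16 ± 1.32 CPM with Egfr KO PSC and 3.45 ± 0.502 CPM with Egfr WT PSC (log2 fold change -0.67, edgeR adjusted p = 0.655). Met, a receptor tyrosine kinase that associates with B-type plexins, averaged 37.4 ± 6.95 CPM with Egfr KO PSC and 38.0 ± 3.02 CPM with Egfr WT PSC.

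Of 26 genes that carry plexin signals, 25 passed the filter, 13 higher and 12 lower, with none at an unadjusted p under 0.05. Cfl1, the actin-severing protein cofilin, averaged 1955 ± 108 CPM with Egfr KO PSC and 1674 ± 244 CPM with Egfr WT PSC (log2 fold change 0.22, edgeR adjusted p = 0.653). Dpysl2, a microtubule-binding mediator of Sema3a collapse, averaged 192.5 ± 58.2 CPM with Egfr KO PSC and 246.9 ± 43.8 CPM with Egfr WT PSC (log2 fold change -0.36, edgeR adjusted p = 0.685). Rap1a, a small GTPase that plexins inactivate, averaged 26.5 ± 4.73 CPM with Egfr KO PSC and 31.5 ± 2.97 CPM with Egfr WT PSC. All 22 genes of robo and netrin receptor signalling passed, 12 higher and 10 lower, with a median log2 fold change of 0.04. Ptk2, the focal adhesion kinase, averaged 90.3 ± 12.7 CPM with Egfr KO PSC and 74.1 ± 3.13 CPM with Egfr WT PSC (log2 fold change 0.29, edgeR adjusted p = 0.512). Srgap3, a GTPase-activating protein that binds robos, averaged 48.1 ± 16.2 CPM with Egfr KO PSC and 30.9 ± 11.6 CPM with Egfr WT PSC (log2 fold change 0.64, edgeR adjusted p = 0.586). Usp33, a deubiquitinase that binds Robo1 in human cells, averaged 55.3 ± 5.62 CPM with Egfr KO PSC and 69.8 ± 17.5 CPM with Egfr WT PSC (log2 fold change -0.34, edgeR adjusted p = 0.652).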

How the data were processed

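RNA was made into libraries with a low-input kit whose PCR cycle number followed the RNA input, per the labels' protocols; without molecular identifiers, intervals cover counting error and library spread only. The authors deposited the estimated count, TPM and effective length of 147828 transcripts per library, quantified with Salmon 1.9.0 against GRCm39, per the submitters' processing notes. Annotation release and strand setting: not given in the sources used here. Deposited TPM values, which the quantifier scales for transcript length and library total, served for levels between genes and for splice shares. Names, transcript types and sequences came from GENCODE M21 (GRCm38), in which 137063 transcripts (92.7%) had a gene, holding 98.1% to 98.7% of the counts; the other 10765 were left out. Of the members' 304 transcripts, 303 have the same length in M21. Exons of 9 members overlap another gene (Nrp1, Ntn3, Ntn5, Plxna1, Plxna4, Plxnb1, Plxnc1, Sema4a and Sema4c), and reads there cannot be assigned with certainty.

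Estimated counts were summed per gene, rounded and tested in edgeR 4.0.16 (R 4.3.3) by its quasi-likelihood test, with TMM normalisation, the default filter (minimum count 10) and Benjamini-Hochberg adjustment over 17495 genes, at 0.05. CPM are TMM-normalised. SE and 95% intervals came from the F statistic. DESeq2 1.42.0 and voom of limma 3.58.1 with sample weights were alternatives; others changed the size factors or filter, added a length offset, a number carried by the deposited tables or a marker score, or left out libraries. The edgeR, DESeq2 and limma voom fits were tested on simulated counts with the same relative spread in every gene, unlike that of the members. Values in every library are given for the 4 members of lowest p in each direction and the highest TPM of each family, and 3 genes of lowest p per pathway list; Neo1, Met, Dcc, Unc5a, Unc5d and Dscam were named after their values were seen. Members and lists were chosen with earlier results of these data known. Apart from the fits named with a marker score, no adjustment was made for the content of other cell types in the reported values.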

Additional observations from a re-analysis of the deposited data

Results flagged for a closer look

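A library far from the other 4 of its group was looked for in 56 sets of group values, and chance marks about 1 set in 20. Ntn1 stood at 4.52 CPM in Egfr KO PSC replicate 1, while the other Egfr KO PSC libraries lay between 0.809 and 1.19 CPM. Rgma, a ligand of neogenin, stood at 3.30 CPM in Egfr WT PSC replicate 5, while the other Egfr WT PSC libraries lay between 1.99 and 2.32 CPM.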

How the results depend on the processing

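No member was called under any of 20 alternatives, of which 10 left out a library and 1 was chosen after seeing the data. Over all genes, 136 were called in DESeq2, 2 in limma voom with sample weights and 1 with no filter on low counts, and 0 to 4 when a library was left out (4 without Egfr KO PSC replicate 1, 1 without Egfr KO PSC replicate 3 and 2 without Egfr WT PSC replicate 5). Of 240 alternative fold changes of the 12 members with values in every library, 237 kept their direction and none passed the threshold. The 3 that reversed were Sema3e at -0.020 and Sema3c at -0.14 with the macrophage marker score as a covariate, and Sema3c at -0.0023 with the endothelial marker score as a covariate; the cause was not tested. The lowest adjusted p under any alternative was 0.171, for Sema4g (log2 fold change -1.30) with the endothelial score. No paired analysis was possible because the labels pair no library across the groups and the replicate numbers only name libraries. The deposited tables also carry a number, of a meaning the labels do not give, whose 3 values occur in both groups. With it as a factor, 5 members (14.7%: Nrp1, Sema3a, Sema4g, Sema5a and Slit3) had an unadjusted p under 0.05 in edgeR, beside 8.23% of all genes, and the log2 fold change was -1.12 for Sema5a and -1.65 for Robo4. The members at that level were 7 with the fibroblast and stellate score (20.6%, beside 11.99% of all genes), 7 with the endothelial score (20.6%, beside 14.8%) and 1 with the macrophage score (2.94%, beside 3.17%), against 3 without a covariate. Of these last 3, Nrp1 stayed at that level in every fit with a marker score, Sema3a only with the fibroblast and stellate score, and Sema5a in none. Robo4, with 0 to 77 counts, had the widest range of fold changes over the alternatives (-3.46 in limma voom, against -0.83 in edgeR and -0.29 with the fibroblast and stellate score).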
